A study of Drosophila melanogaster with 2 samples.

Results

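The genes described here encode subunits of Mediator, of the TAF part of TFIID and of RNA polymerase II, and 1 protein that binds the polymerase. Peaks at their start sites were taken from ChIP-seq of fd3F in whole Drosophila melanogaster embryos. The genes were chosen by symbol from the protein-coding genes of the dm6 annotation: MED followed by a digit, Taf followed by a digit, or Polr2 followed by a letter. This gave 53 of 13945 protein-coding genes, of which 25 were Mediator genes, 15 were Taf genes and 13 were Polr2 genes. The embryos were 8 to 18 h old and came from 1 transgenic line that carries, stably expressed, a fusion of the forkhead transcription factor fd3F with GFP at the C-terminal end. Chromatin was precipitated with an antibody to GFP. Biological replicates 1 and 3 formed the only group, so there was no comparison between conditions. No embryos without the fusion are among the samples, so a peak is not by itself shown to be binding of fd3F. Whole embryos mix all cell types, so signal from a few cells and weak signal from many cells cannot be told apart.

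Summits no more than 1000 bp from a start site of a gene were taken for that gene from 4 deposited peak lists. The relaxed lists of replicate 1, of replicate 3 and of both replicates together hold 30000 peaks each. The list of reproducible peaks holds 3917, and these are the 3917 peaks of highest signal in the list of both replicates together. Signal is the value that the authors' peak caller gave each peak, on a scale of its own list, and rank 1 is the highest signal of a list. A gene with several such summits is described by the one of highest signal. A distance is negative where the summit lies upstream of the start site of the gene. Sequencing depth is unknown, because the lists hold no read counts.

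RNA polymerase II makes the transcripts of protein-coding genes. TFIID, built from the TATA-binding protein and its associated factors (TAFs), recognises core promoters and seeds the assembly of the polymerase there, and Mediator connects factors bound to DNA with that assembly. These complexes are used in every cell, whereas fd3F is known from genetics for its role in the chordotonal sensory neurons of the fly. Forkhead proteins bind a short AT-rich core.

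Sequences at strong member peaks are shown so that the summit of each promoter can be read beside its value. They are windows centred on the reproducible summit of the 3 strongest Mediator genes, of Taf2 and Taf4, and of the 3 strongest Polr2 genes, read from the Release 6 (dm6) genome on the strand of the gene. Capitals mark any of 8 forkhead heptamers on either strand, namely those that begin with ACAAA, with ATAAA, with GCAAA or with GTAAA and end in CA or in TA. A match is a description of the letters and not a measured site. Taf5, the strongest member of all, is not shown because the sequence of its chromosome arm is not printed here, and it had no heptamer within 100 bp of its summit.
MED30 (chr3L:654201-654321, minus strand): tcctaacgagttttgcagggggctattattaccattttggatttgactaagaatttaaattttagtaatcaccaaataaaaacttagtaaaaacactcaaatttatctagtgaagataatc
MED27 (chr3R:5654963-5655083, plus strand): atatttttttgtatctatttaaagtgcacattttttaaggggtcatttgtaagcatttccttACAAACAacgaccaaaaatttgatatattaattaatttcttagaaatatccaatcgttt
MED17 (chr3R:18188894-18189014, plus strand): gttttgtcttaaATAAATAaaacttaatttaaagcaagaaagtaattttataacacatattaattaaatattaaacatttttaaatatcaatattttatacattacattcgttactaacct
Taf2 (chr3L:9888766-9888886, minus strand): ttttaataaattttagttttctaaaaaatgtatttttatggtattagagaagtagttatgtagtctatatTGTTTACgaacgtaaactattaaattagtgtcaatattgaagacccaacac
Taf4 (chr3L:16113602-16113722, plus strand): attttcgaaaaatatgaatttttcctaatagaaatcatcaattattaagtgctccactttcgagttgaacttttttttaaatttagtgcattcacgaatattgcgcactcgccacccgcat
Polr2B (chr3R:14125662-14125782, plus strand): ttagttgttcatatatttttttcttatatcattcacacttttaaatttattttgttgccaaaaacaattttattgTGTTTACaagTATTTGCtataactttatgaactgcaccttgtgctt
Polr2J (chr2L:17410514-17410634, minus strand): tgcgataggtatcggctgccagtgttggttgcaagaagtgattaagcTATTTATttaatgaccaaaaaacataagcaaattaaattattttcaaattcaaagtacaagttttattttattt
Polr2H (chr3L:21728715-21728835, plus strand): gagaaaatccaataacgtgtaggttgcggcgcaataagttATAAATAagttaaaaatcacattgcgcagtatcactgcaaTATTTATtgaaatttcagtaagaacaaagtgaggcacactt
Heptamers occurred in 6 of these 8 windows. The heptamer nearest to a summit was that of MED27, with its middle base 5 bases from the summit, and Taf2 and Polr2B held the stricter forkhead word TGTTTAC. Of the 2264 reproducible summits that lay at most 1000 bp from the start of a protein-coding gene, 45.5% had a heptamer in a window of this width. The windows of MED30 and Taf4 had none, and these chosen windows were not compared by a test.

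Neither MED22 nor Polr2G had a start-site peak in any list, and they were the 2 members of which this was true. For comparison, a window of the same width is shown for each, centred 142 bp upstream of the start site, the median position of the member summits in whole bases.
MED22 (chrX:927937-928057, plus strand): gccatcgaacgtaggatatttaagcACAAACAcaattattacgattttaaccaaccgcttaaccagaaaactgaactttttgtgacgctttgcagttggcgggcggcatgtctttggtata
Polr2G (chr3R:15223262-15223382, minus strand): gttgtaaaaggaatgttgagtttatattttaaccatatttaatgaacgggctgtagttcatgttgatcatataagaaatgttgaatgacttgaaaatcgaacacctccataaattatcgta
MED22 held 1 heptamer there and Polr2G held none. A window at this place had a heptamer in 37.6% of all protein-coding genes.

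A reproducible start-site peak was found at 18 of the 53 members (34.0%, exact Clopper-Pearson 95% interval 21.5 to 48.3%, which covers counting error only), against 20.8% of all protein-coding genes. By family there were 9 of 25 Mediator genes (36.0%), 3 of 15 Taf genes (20.0%) and 6 of 13 Polr2 genes (46.2%). No test was run between the members, or a family of them, and the other genes. The interval treats genes as independent draws and is not such a test. The members were crowded by neighbours: 39 of 53 (73.6%) had a head-to-head partner, a protein-coding gene on the other strand that starts within 1000 bp and points away, against 36.2% of all protein-coding genes. Among members in such pairs 16 of 39 had a reproducible peak (41.0%), against 36.1% of all genes in pairs. Among members outside pairs 2 of 14 had one (14.3%), against 12.0% of all genes outside pairs. Within each of these classes the share of members was nearer to that of all genes than over all genes together, and the part that pairing plays was not tested. Only 1 start site is annotated for 90.6% of members, against 73.5% of all genes, and the part that the number of start sites plays was not tested.

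**Figure D1:**
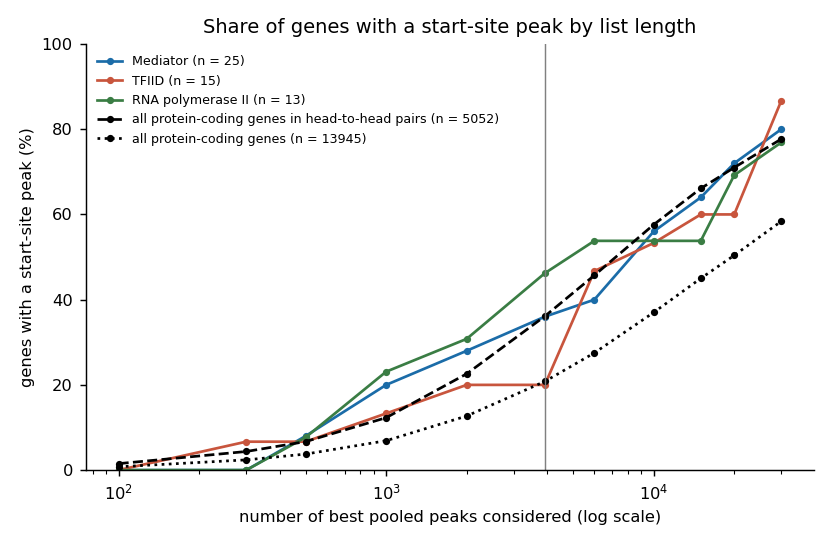
Share of genes (percent) with a summit within 1000 bp of a start site among the best peaks of the list of both replicates together, against the number of peaks considered (log scale); the vertical line marks 3917 peaks. At 3917 peaks the Mediator line (36.0%) meets that of all genes in head-to-head pairs (36.1%), the RNA polymerase II line is at 46.2%, and the TFIID line (20.0%) is at that of all protein-coding genes (20.8%).

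Further down the pooled list the families came together. All 30000 pooled peaks reached 43 of 53 members (81.1%), against 58.4% of all protein-coding genes, with 20 Mediator, 13 Taf and 10 Polr2 genes. Among all genes in head-to-head pairs the share was 77.7%. Of the 30000 pooled peaks only 10181 have a q-value of at most 0.05. Such a peak was found at 29 members (54.7%, against 37.3% of all genes). The Taf genes gained just below the reproducible peaks: 3 of 15 had a peak among the best 3917, and 7 of 15 among the best 6000. The 4 added were Taf13, Taf11, Taf8 and Taf3, at pooled ranks 3981, 4919, 5280 and 5749. As many came in at the foot of the list, from 9 of 15 among the best 20000 to 13 among all 30000. Taf10 and Taf10b came in there on 1 shared summit. Among the best 6000 peaks 46.7% of Taf genes had one, against 27.5% of all genes and 45.7% of genes in head-to-head pairs. Among the best 3917 the share of Taf genes (20.0%) was near that of all genes (20.8%). It was below the share of all genes in head-to-head pairs (36.1%), a gap that was not tested. Of the 15 Taf genes 12 are in such pairs, and 3 of these 12 had a reproducible peak. The count of Taf genes thus depends on where the list is cut.

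Among the members with a reproducible peak, signal ran from 125 (Polr2A) to 679 (Taf5), with a median of 336. The median of all 2895 protein-coding genes with such a peak was 229. The highest signal of the list was 3902.7, and the best rank of a member was 238. The median rank of members was 877, against 1580 for all genes with a peak. Ranks up to 1000 held 10 of 53 members (18.9%), against 6.90% of all genes and 12.3% of genes in head-to-head pairs.

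In Mediator, the subunits MED30 and MED27, which occur in the complex of animals, had the highest signals. MED30 (FBgn0035149, chromosome 3L, 652987 to 654089) had a reproducible signal of 580 at rank 309, with a signal of 294 at rank 321 in replicate 1 and of 281 at rank 336 in replicate 3. MED27 (FBgn0037359, 3R, 5655139 to 5656336) had 566 at rank 332, with 278 at rank 358 in replicate 1 and 293 at rank 312 in replicate 3. Both kept nearly the same rank in either collection of embryos. MED17 (FBgn0038578, 3R, 18189072 to 18191265), a scaffold subunit of the head module, had 421.5 at rank 573, with 175 at rank 848 in replicate 1 and 248 at rank 436 in replicate 3. MED15, the tail subunit that contacts activators, had 414.4 at rank 591, with 254.5 at rank 419 in replicate 1 and 157 at rank 981 in replicate 3. It was the member whose summit lay farthest from its start site, 525 bp upstream.

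The other Mediator genes with a reproducible peak were spread over the modules. The head had 2 of 7 (MED6 and MED17), the middle 3 of 9 (MED4, MED7 and MED31) and the tail 2 of 5 (MED15 and MED16). The animal subunits MED27, MED28 and MED30 had 2 of 3. Of all genes 20.8% had such a peak, and of genes in head-to-head pairs 36.1%. The counts are small, and the modules were not compared by a test. MED14, the backbone that joins the modules, had only a weak pooled peak at rank 16742 with a q-value of 0.263, and none in replicate 3. MED31, a small subunit of the middle module, had a signal of 324 at rank 935, with 132 at rank 1355 in replicate 1 and 188 at rank 711 in replicate 3. MED4 had 295 at rank 1095, with nearly equal ranks of 1122 and 1218 in replicates 1 and 3, and no other gene started within 1000 bp of its summit. MED7, which pairs with MED21 in the middle module, had 220 at rank 1677, with 80.9 at rank 2798 in replicate 1 and 137 at rank 1219 in replicate 3. MED16 had 156 at rank 2697, and MED6 had 134 at rank 3242, with 82.4 at rank 2709 in replicate 1 and 48.2 at rank 4630 in replicate 3. MED31 and MED7 ranked higher in replicate 3, and MED6 higher in replicate 1. MED6 has 5 annotated start sites, more than any other member, and its summit lay 20 bp upstream of an inner one, in an intron of MED6 and of its partner Naa80.

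In TFIID the peaks were few but included the strongest of all members. Taf5 (FBgn0010356, chromosome 2R, 10877312 to 10879673), a WD-repeat scaffold subunit, had a signal of 679 at rank 238 in the reproducible list, 336 at rank 246 in replicate 1 and 333 at rank 248 in replicate 3. Taf2 (FBgn0011836, 3L, 9884411 to 9888683), which touches the promoter around the start site, had 397 at rank 643, with 199 at rank 665 in replicate 1 and 207 at rank 610 in replicate 3. It was the only member with 2 reproducible summits in its window. Both peaks held their place in the 2 collections. Taf4 (FBgn0010280, 3L, 16113212 to 16121651), a histone-fold subunit of the core, had 295.4 at rank 1090, with 153 at rank 1073 in replicate 1. In the 30000 peaks of replicate 3 it had none within 1000 bp of a start site, and the nearest summit there lay 2141 bp away. Taf4 was the only one of the 18 members whose reproducible peak had no counterpart in the list of a replicate. Its summit (3L, 16113662) lies in an intron of the longest form of the gene, 128 bp upstream of an inner start.

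Of the Taf genes, the 11 that encode histone-fold subunits held 1 reproducible peak, that of Taf4, and the 4 others held 2. The share was 20.8% over all genes and 36.1% over genes in head-to-head pairs. These counts are small, and the groups were not compared by a test. Taf1, the largest TAF, had a pooled peak at rank 22347 (q-value 0.444) and a better one in replicate 1, at rank 7675 (q-value 0.00814). Taf7, its binding partner, had no pooled peak and one in replicate 1 at rank 21841. Taf10 and Taf10b, paralogues of 1 histone-fold subunit, are head-to-head neighbours with 45 bp between their starts. They share a summit of low signal at pooled rank 23911. Taf12L, a testis TAF homologue listed in RefSeq with the synonym rye, is counted among the 15 Taf genes. It had only weak summits, at rank 24998 in the pooled list, 21141 in replicate 1 and 26237 in replicate 3.

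In RNA polymerase II, Polr2B was strongest, the second-largest subunit that forms the catalytic cleft with Polr2A. Polr2B (FBgn0262955, 3R, 14125791 to 14130111) had a signal of 550 at rank 348, with 234 at rank 491 in replicate 1 and 312 at rank 272 in replicate 3. Polr2J (FBgn0032634, 2L, 17409698 to 17410406), which pairs with Polr2C in the assembly of the enzyme, had 403 at rank 623, with 188 at rank 736 in replicate 1 and 192 at rank 691 in replicate 3. Polr2H (FBgn0037121, 3L, 21728932 to 21729694), a subunit shared by RNA polymerases I, II and III, had 347 at rank 819, with 135 at rank 1309 in replicate 1 and 221.5 at rank 532 in replicate 3. For Polr2B and Polr2H the better rank was that of replicate 3.

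The largest subunit, Polr2A, whose C-terminal repeats are phosphorylated during transcription, had the weakest reproducible peak of any member (125 at rank 3522, with ranks of 4865 and 3097 in replicates 1 and 3). Polr2I, a subunit at the jaw of the enzyme, had 126 at rank 3500. The 5 subunits shared by the 3 polymerases had reproducible peaks at 2, Polr2F (283 at rank 1164, with ranks of 1337 and 1053 in replicates 1 and 3) and Polr2H. The 7 that belong to RNA polymerase II alone had them at 4. The share was 20.8% over all genes and 36.1% over genes in head-to-head pairs, and these small counts were not compared by a test. Polr2C had a pooled peak at rank 3995, just below the reproducible ranks, and one in replicate 1 at rank 4269, but none in replicate 3. Polr2D, Polr2E and Polr2K had weak pooled peaks, at ranks 20156, 17337 and 19769, with q-values of 0.282 to 0.375. Polr2M, which binds the polymerase and is no core subunit, had a summit in replicate 3 alone, at rank 23303.

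**Figure D2:**
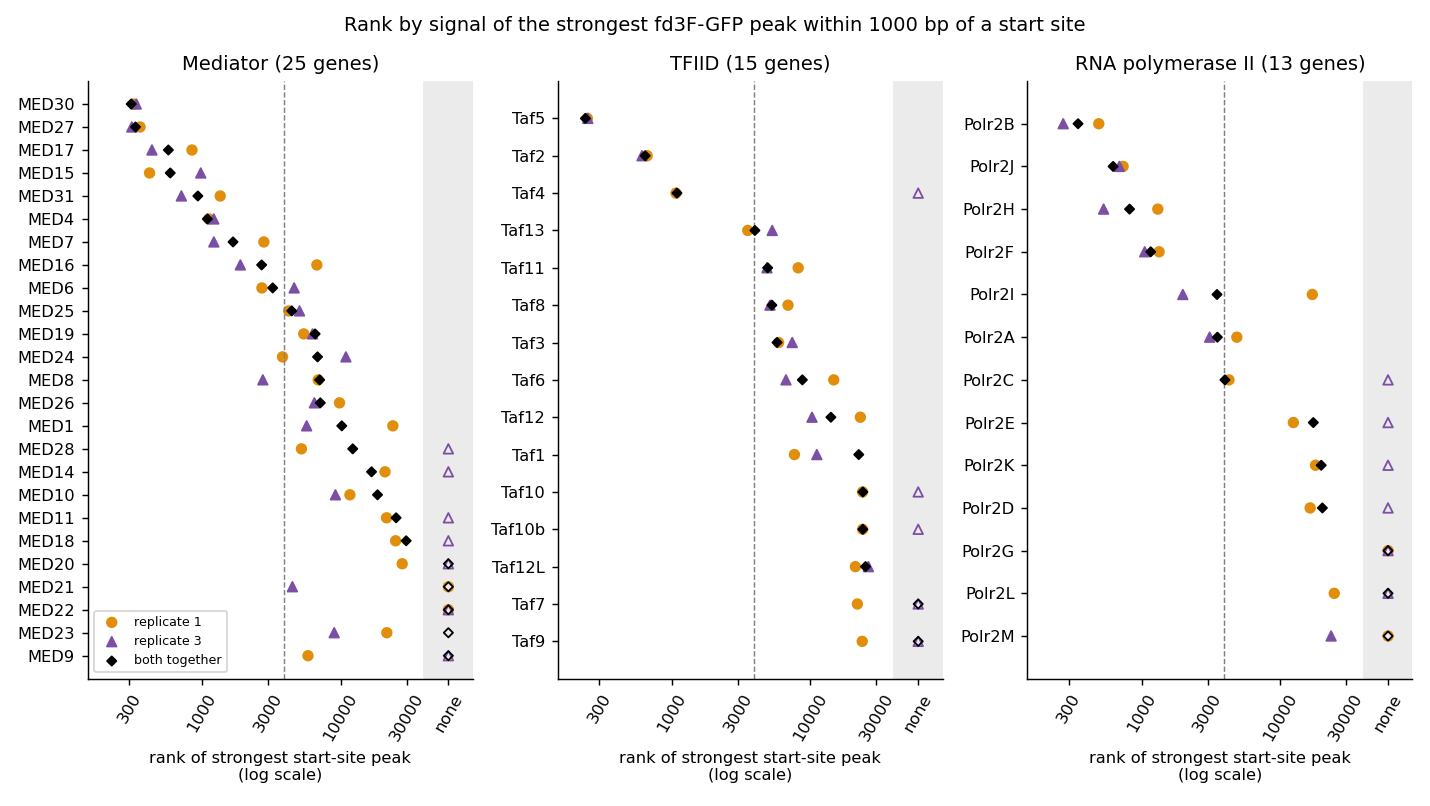
Rank by signal (log scale) of the strongest peak within 1000 bp of a start site for each of the 53 members, in replicate 1 (circles), replicate 3 (triangles) and both together (diamonds); open symbols in the grey band mark no such peak, and the dashed line marks rank 3917. The 18 members with a reproducible peak lie left of the line by their diamonds, and 18 members have no peak in replicate 3.

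Summits sat a short way upstream of the members' start sites. All 18 lay upstream, against 85.1% of the 2895 genes with a reproducible peak, and 17 of 18 lay within 200 bp. The median distance was -142.5 bp, with quartiles of -162 and -106 bp, against -154 bp with quartiles of -276 and -79.0 bp for all genes. By family the medians were -118 bp for Mediator, -143 bp for TFIID and -150 bp for RNA polymerase II. None fell in a coding exon, 13 were intergenic, 2 lay in a 5′ untranslated region of a neighbour (CalpB beside Taf2, CG11247 beside Polr2H) and 3 lay in an intron. These positions, and the count within 200 bp, were not counted over all genes with a reproducible peak.

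Most of these peaks cannot be given to a member alone. For 15 of the 18 members another protein-coding gene started within 1000 bp of the same summit, and MED4, Taf4 and Polr2F were the 3 without one. Neither this count nor that of nearest starts below was made for all genes, so neither is shown to be particular to members. In 14 of the 16 members in head-to-head pairs the summit lay between the start of the member and that of a partner (87.5%), against 82.3% of all 1825 paired genes with a reproducible peak. For 7 members the nearest start site belonged to another gene: MED15 (CG4297, 288 bp), MED30 (Rev1, 102 bp), MED31 (CG9775, 67 bp), Taf2 (CalpB, 64 bp), Taf5 (Pex6, 147 bp), Polr2H (CG11247, 31 bp) and Polr2J (CG15141, 67 bp). At Taf5 the summit was nearly midway, 154 bp from Taf5 and 147 bp from Pex6, which encodes a peroxisome assembly ATPase. At MED27 it lay 116 bp from MED27 and 162 bp from elm. The pair of Polr2I is su(Hw), an insulator protein gene, with its start 337 bp from the summit. When each summit was given only to the gene with the nearest start, 11 of 53 members kept a peak (20.8%), against 14.7% of all genes.

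**Figure D3:**
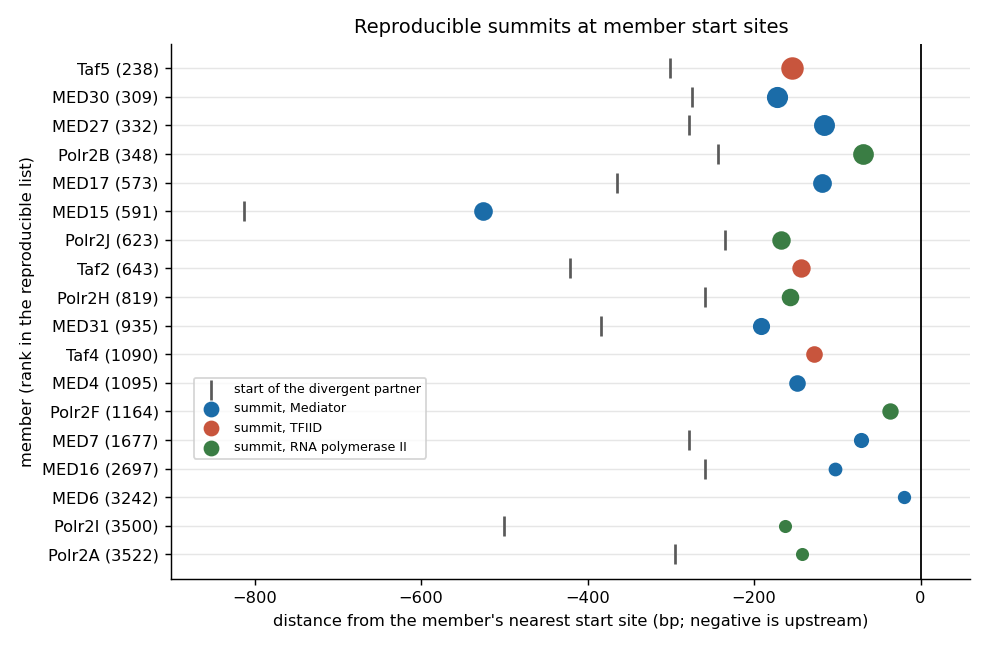
Distance in bp from the member's nearest start site (black line at 0, negative upstream) to its strongest reproducible summit, for the 18 members in order of rank, with circle area growing with signal. Grey ticks mark the partner's start on the far side of the summit for the 14 members whose summit lies between divergent starts; all summits but that of MED15 lie within 200 bp of the member.

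The replicates placed the member summits close together, while ranks differed. Of the 18 members with a reproducible peak, 17 had a peak at a start site in both relaxed replicate lists, with summits a median of 21 bp apart (at most 60 bp), against a median of 25 bp for 2850 genes likewise. Ranks differed by a median factor of 1.71, against 1.36 for those genes, and 12 of the 17 ranked higher in replicate 3 (70.6%, against 58.1% of those genes). Among the best 3917 peaks of each replicate, 17 members had a start-site peak in replicate 1 (32.1%, against 20.1% of all genes) and 17 in replicate 3 (32.1%, against 21.3%). They were not the same 17: 13 were in both (24.5%, against 17.4% of all genes). MED16, Polr2A and Polr2I were reproducible but missing from the best of replicate 1, and MED6 and Taf4 from the best of replicate 3. The best of replicate 1 added MED24 and Taf13, and the best of replicate 3 added MED8.

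Among the 33 members with a peak in both relaxed lists, Polr2I had the largest gap in rank between the replicates. It had a signal of 97.4 at rank 1984 in replicate 3 and of 26.7 at rank 17054 (q-value 0.174) in replicate 1. Its summits lay 21 bp apart. MED1, which had no reproducible peak, was next at rank 5696 in replicate 3 and 23859 in replicate 1. MED16 followed, at rank 1894 in replicate 3 and 6752 in replicate 1. All 3 ranked higher in replicate 3, but members with a peak in only 1 replicate have no such gap and were left out. Of those, Taf4 was at rank 1073 and Polr2C at rank 4269 in replicate 1 alone. MED21 was at rank 4497 in replicate 3 alone. Over the whole relaxed lists the direction was the other way: 49 members had a start-site peak in replicate 1 (92.5%, against 60.1% of all genes) and 35 in replicate 3 (66.0%, against 56.2%). Both lists held 33 members (62.3%, against 45.7% of all genes), 16 members appeared in replicate 1 alone (30.2%, against 14.4% of all genes) and 2, MED21 and Polr2M, in replicate 3 alone (3.77%, against 10.5%). Of the 49 in replicate 1, 13 had their best peak at rank 20001 to 30000, which is 24.5% of members, against 8.24% of all genes. With peaks of q-value at most 0.05 the replicates were close, at 30 members in replicate 1 (56.6%, against 39.7% of all genes) and 28 in replicate 3 (52.8%, against 32.9%).

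**Figure D4:**
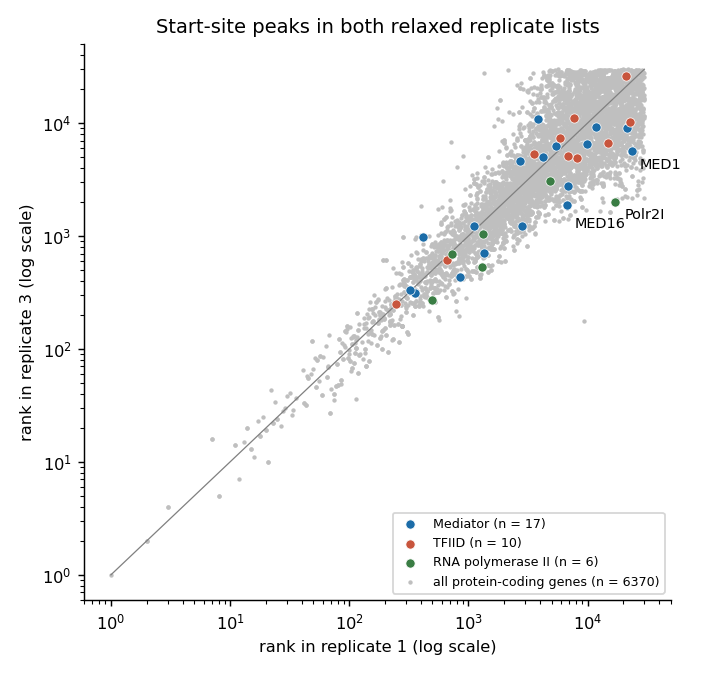
Rank of the strongest start-site peak in replicate 1 against that in replicate 3 (both log scales) for the 33 members with a peak in both relaxed lists, coloured by family, over all 6370 protein-coding genes with one in both (grey); the line marks equal ranks. Replicate 1 runs along the horizontal axis, and Polr2I, MED1 and MED16, the 3 members with the largest gaps, lie below the line, on the side of higher rank in replicate 3.

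Of the 35 members without a reproducible peak, 25 had a weaker pooled peak. Pooled ranks 3918 to 10000 held the best peak of 20.8% of all members, against 16.2% of all genes. Ranks 10001 to 20000 held that of 13.2% (against 13.4%), and ranks 20001 to 30000 that of 13.2% (against 8.05%). The nearest reproducible summit of a member outside the window was at Taf12, 1443 bp away, followed by Taf10b and Taf10 at 1810 and 1855 bp. Inside the window, MED9 had a summit in replicate 1 at 998 bp (rank 5824), and the nearest pooled summit, at 1087 bp, fell outside. Weak peaks of Mediator included MED25 (pooled rank 4447), MED19, MED24, MED8 and MED26, all with a pooled q-value under 0.05. MED20 shares its promoter with Trf, a TBP-related factor gene, with 47 bp between the starts, and neither gene had a pooled start-site peak. MED21, on 3L, had no reproducible summit within 2020378 bp, yet a summit in replicate 3 lay 147 bp upstream at rank 4497 (q-value 0.00122). The 2 members on chromosome 4, MED26 and Taf3, had no reproducible peak, against 11.2% of the 80 protein-coding genes of that chromosome. Elsewhere, 8 of 17 members had one on 3R (22.2% of all genes there), 5 of 13 on 3L (22.5%), 2 of 9 on 2L (20.9%), 2 of 7 on 2R (19.2%) and 1 of 5 on X (18.5%).

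A forkhead heptamer lay within 100 bp of 13 of the 18 member summits (72.2%), against 59.5% of all 2264 promoter-proximal reproducible summits. Taf5, the strongest member, had none, nor had MED15, MED30, Taf4 and Polr2F. TGTTTAC, which is also the reverse complement of the heptamer GTAAACA, was present at Taf2 and Polr2B (11.1%, against 7.07%), at 13 and 18 bp from the summit. The DNA replication-related element TATCGATA, a promoter word of fly housekeeping genes, was present at MED17 (5.56%, against 4.55%), and GGTCACAC, the element bound by M1BP, at no member summit (against 2.52%). TATAAA occurred at 8 (44.4%, against 41.7%) and GAGAG at 3 (16.7%, against 17.4%). All were searched on both strands. Mean GC content within 100 bp of the summit was 31.3% ± 6.08 (SD over 18 windows) at members, against 33.7% ± 6.97 over the 2264 summits, and ran from 22.9% at MED17 and Taf5 to 46.3% at Polr2F. With 18 summits these shares are coarse, and none was tested.

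Other genes of the transcription machinery, listed by role with earlier results of these data known, were set beside the members. Of 80 such genes 31 had a reproducible peak (38.8%), against 34.0% of members and 20.8% of all genes, and 62.5% of them are in head-to-head pairs. Mediator subunits under other symbols had 2 of 5: skd, the MED13 subunit, and the kinase Cdk8, both of the kinase module. Neither kto, the MED12 subunit of that module, nor its cyclin had a reproducible peak. The pooled list held no peak of kto and a weak one of the cyclin gene, at rank 24362. None of Tbp, Trf and Trf2 had a reproducible peak, nor had 4 testis TAF homologues other than Taf12L. General initiation factors had 7 of 18: TfIIA-L, TfIIA-S, TfIIB and the TFIIH genes Xpd, mrn, Tfb5 and Ssl1. Ssl1 had a signal of 1723.6 at rank 25, above every member; its partner Chro starts 105 bp away, and the summit lay 190 bp upstream of Ssl1.

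Elongation factors had 9 of 16 (56.2%), against 20.8% of all genes and 36.1% of genes in head-to-head pairs. Of the 16, 81.2% are in such pairs, and no test was run. Among the 9 were all 4 NELF genes (Nelf-A, NELF-B, Nelf-E and TH1), which hold the polymerase paused near the start. Nelf-E (536 at rank 367) shares its promoter with the ribosomal protein gene RpL14. TH1 had 459 at rank 493, with its summit 139 bp upstream and its partner mei-41 starting 260 bp away. SAGA, a coactivator that shares several TAFs with TFIID, had 10 of 17, led by the acetyltransferase gene Gcn5 (572 at rank 322), wda (466 at rank 479) and Ada2b (392 at rank 660). Genes of RNA polymerases I and III had 3 of 17 (17.6%), the lowest share of the lists with a peak.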

How the data were processed

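ChIP-seq of GFP-tagged fd3F was used as deposited, in 4 narrowPeak lists, and the build is dm6 per the labels. Aligner, peak caller and the threshold for reproducible peaks were not given in the sources used here. Each deposited signal and deposited −log10 q-value belongs to its own list. Rank is the order of signal. The replicates carry separate biosample labels, per the labels. Age was taken from the source name, since the age tag (a spreadsheet-like number) contradicts it.

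Start sites came from the Ensembl 115 annotation, with 13945 protein-coding genes on the arms with peaks, and sequence from the Release 6 genome. Distances were recovered as placed on simulated summits. No test was run: counts and medians stand beside those of all protein-coding genes. Members and lists were chosen with earlier results of these data known. Every member with a reproducible peak or with none in any list was named, the 3 strongest of each family in full. Of 81 other machinery genes 80 were used, since rye is Taf12L. One of these genes is not reported here by name. The windows shown for MED22 and Polr2G were chosen after their values were seen. Scripts ran on Python 3.11.15 with pandas 2.3.3, numpy 2.4.6, matplotlib 3.10.9 and scipy 1.17.1. Alternatives covered the list, window, start sites, overlap and motif width.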

Additional observations from a re-analysis of the deposited data

How the results depend on the processing

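The count of members with a reproducible start-site peak was 18. It stayed within a factor of 1.5 with windows of 500 bp (17, against 17.8% of all genes) and 2000 bp (21, against 25.4%), 1 start site per gene (18, against 18.8%), the upper part of the list (14, against 12.5%) and a peak in each relaxed replicate list (17). Each replicate alone gave 17 for all members, 9 for Mediator, 2 to 4 for TFIID and 4 to 6 for RNA polymerase II. Pooled peaks with a q-value of at most 0.05 gave 29 (14 Mediator and 8 Taf genes), where 37.3% of all genes have one. Giving each summit only to its nearest start gave 11, an alternative chosen after seeing the data. The 2000 bp window, at which the share of all genes was also higher, gave 6 Taf genes in place of 3. The count in both replicates was 33 (62.3%, against 45.7% of all genes). It was 24 to 37 under its alternatives, for which the share of all genes was not computed. The median signal was 324 to 336. The median distance was -142 bp with either other window and -142.5 bp with 1 start site per gene. The heptamer share was 61.1% within 50 bp and 88.9% within 250 bp (against 41.4% and 85.6% of all promoter-proximal summits), and 70.6 to 76.5% in each replicate alone. No paired analysis was possible because there is 1 group. Depth is unknown, so a missing peak is not shown to be missing binding.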
